A study of Mus musculus with 16 samples.

Results

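The genes described here encode collagens, laminins, integrins and the ADAM and ADAMTS proteases. They were chosen by name alone: a gene entered where its symbol began with Col, a number and a chain letter, with Lam and a chain letter, with Itga or Itgb, or with Adam or Adamts and a number, in any of 8 lists of m6A peaks of mouse liver. The rule took 38 of the 7693 genes in the lists, and 401 of the 77183 peaks (0.52%). The 38 were 15 collagens, 3 laminin chains, 7 integrin alpha chains, 3 integrin beta chains, 5 ADAM and 4 ADAMTS genes, and Col4a3bp. The last is a match of the name only: it encodes a ceramide transfer protein and no collagen, so it was kept in the counts and is given apart.

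Livers came from male C57BL/6J mice, which were 10 to 11 weeks old before the diets were given. HFrD mice had eaten a high-fructose diet, in which carbohydrate supplied 70% of the energy, protein 20% and fat 10%, for 2 weeks, and ND mice a normal diet for the same time. The lists analysed were those of HFrD mice 1, 2, 5 and 7 and of ND mice 1, 3, 6 and 7, 1 list for each mouse and 4 for each diet. The groups differ by diet alone as labelled, and whole liver was used, so every cell type of the organ contributed RNA. The mark studied, m6A, is a methyl group on the N6 position of adenosine within RNA. In MeRIP-seq, RNA fragments that carry it are pulled down with an antibody and sequenced, and stretches with more reads than the background are called as peaks.

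Collagens are built of 3 chains wound into a triple helix, which requires glycine at the first place of each repeat and is often followed by proline. Fibrils of types I, III and V fill the interstitium, type IV collagen and the laminins form basement membranes, and integrins, each an alpha and a beta chain, bind these proteins at the cell surface. ADAM proteases are anchored in the membrane and release the outer parts of other membrane proteins, while ADAMTS proteases are secreted and cut proteoglycans and procollagens. In liver these genes are known mainly for the scar of fibrosis, where stellate cells lay down fibrillar collagen, and for the thin matrix along the sinusoids.

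Sequences of the peak regions on which the results turn are given first. They are from the mm10 assembly (RefSeq), 5′ to 3′ on the strand of the gene. Capitals mark GGACT, a common form of the sequence at which m6A is placed, and its variants with a last C (GGACC) or a last A (GGACA). The 5 exons from collagens and Lamc1 are shown because peaks of these families lay mostly inside coding exons. The Adam17 exon is shown because it was listed in 2 HFrD mice and no ND mouse.
Col18a1 exon 5 of 41, chr10:77085267-77085396, minus strand, listed in every mouse: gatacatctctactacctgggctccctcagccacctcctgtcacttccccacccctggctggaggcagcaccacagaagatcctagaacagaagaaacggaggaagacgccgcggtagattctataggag
Col3a1 exon 20 of 51, chr1:45332135-45332242, plus strand, listed in every mouse: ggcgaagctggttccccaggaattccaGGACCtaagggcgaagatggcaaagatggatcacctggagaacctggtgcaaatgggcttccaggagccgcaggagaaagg
Col4a2 exon 5 of 48, chr8:11398662-11398796, plus strand, listed in 3 HFrD and 4 ND mice: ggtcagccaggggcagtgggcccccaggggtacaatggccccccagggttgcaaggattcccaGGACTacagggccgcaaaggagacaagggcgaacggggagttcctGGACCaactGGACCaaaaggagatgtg
Col15a1 exon 14 of 40, chr4:47270912-47270974, plus strand, listed in 3 HFrD mice and no ND mouse: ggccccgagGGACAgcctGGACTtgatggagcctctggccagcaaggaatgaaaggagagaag
Lamc1 exon 25 of 28, chr1:153227511-153227710, minus strand, listed in every mouse: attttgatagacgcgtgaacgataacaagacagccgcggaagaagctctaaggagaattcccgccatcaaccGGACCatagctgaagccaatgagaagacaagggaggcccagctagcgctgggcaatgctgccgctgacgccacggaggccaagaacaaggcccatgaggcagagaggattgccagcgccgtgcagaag
Adam17 exon 6 of 20, coding part, chr12:21347297-21347430, minus strand, listed in 2 HFrD mice and no ND mouse: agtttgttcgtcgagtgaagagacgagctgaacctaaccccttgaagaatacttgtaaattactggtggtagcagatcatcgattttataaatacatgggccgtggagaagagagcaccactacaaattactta

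The main peaks of Itga3, Itga4, Itga8 and Itga9, and the strongest peaks of Lamc1 and Adamts1, instead lay in long last exons. That of Itgb1 lay in a first exon with no coding base. From these, 29 bases around single motifs are shown, taken from the full stretch covered by the overlapping peaks of all lists. The Adamts1 motif shown lay in the peak of HFrD mouse 2 alone, and the peaks of the other mice did not reach it. That of Lamc1 was not fully inside the peaks of HFrD mouse 2 and ND mouse 1.
Lamc1, 3′UTR, chr1:153220721-153220749, minus strand: tttttataagcaGGACTtaatgcagaaga
Itga9, 3′UTR, chr9:118898411-118898439, plus strand: aaccctgaaataGGACTtgggtgtaaata
Itga9, 3′UTR, chr9:118898586-118898614, plus strand: actcaggaacctGGACTtttgtgatgcca
Itga8, 3′UTR, chr2:12108636-12108664, minus strand: gatatgatgttgGGACTatgaaagtgctt
Itga3, 3′UTR, chr11:95044918-95044946, minus strand: cacactgtgctgGGACTgacctggagcat
Itga4, 3′UTR, chr2:79327366-79327394, plus strand: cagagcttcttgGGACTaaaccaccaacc
Itgb1, 5′UTR, chr8:128685721-128685749, plus strand: cggcttcctgagGGACAggcgggccgagt
Itgb5, coding part of the last exon, chr16:33948792-33948820, plus strand: ctggcgtgccttGGACTtcctGGACCatt
Adamts1, 3′UTR, chr16:85794325-85794353, minus strand: tccttctaagaaGGACTatagtttataat

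The first question was which of these genes carried a peak in liver at all. Of 139 annotated protein-coding genes whose symbols match the rule, 37 had a peak in some mouse (26.6%), against 32.6% of all protein-coding genes (7102 of 21774). Integrin alpha chains were found most often (7 of 18, 38.9%), followed by collagens (15 of 44, 34.1%), integrin beta chains (3 of 10, 30%) and laminin chains (3 of 11, 27.3%). ADAMTS genes (4 of 19, 21.1%) and ADAM genes (5 of 34, 14.7%) were found least often. The 10 counted as integrin beta by symbol include the beta-like gene Itgbl1. The 139 also include 3 genes matched by name only (Itgb1bp1, Itgb1bp2 and Itgb3bp), none of which had a peak. Genes of the rule in no list included Itgam, Itgal, Itgax and Itgb2, chains of leukocyte integrins, and Itga6 and Itgb4, which together bind laminin in epithelia. A gene without a peak may be unmethylated, or too low in RNA for a peak to be called. Input libraries were not analysed here, and in whole liver fewer cells of a type and less RNA per cell cannot be told apart.

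A gene was counted as present in a mouse where its list held any of its peaks. HFrD mice 1, 2, 5 and 7 had 24, 27, 27 and 26 of the 38 genes, and ND mice 1, 3, 6 and 7 had 24, 26, 25 and 30. The ranges overlapped, and only ND mouse 7, whose list was the longest, lay above the others. The mean was 26 ± 1.41 genes in HFrD and 26.2 ± 2.63 in ND livers (SD, n = 4 each). The difference of -0.25 turned to 1 without ND mouse 7 and to 0.417 without HFrD mouse 1. As a share of the 38 this was 68.4% ± 3.72 and 69.1% ± 6.92, beside 64.5% ± 4.16 in HFrD and 70.2% ± 3.87 in ND livers over all genes. Their peaks numbered 45, 48, 56 and 51 in HFrD mice and 41, 45, 56 and 59 in ND mice.

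**Figure D1:**
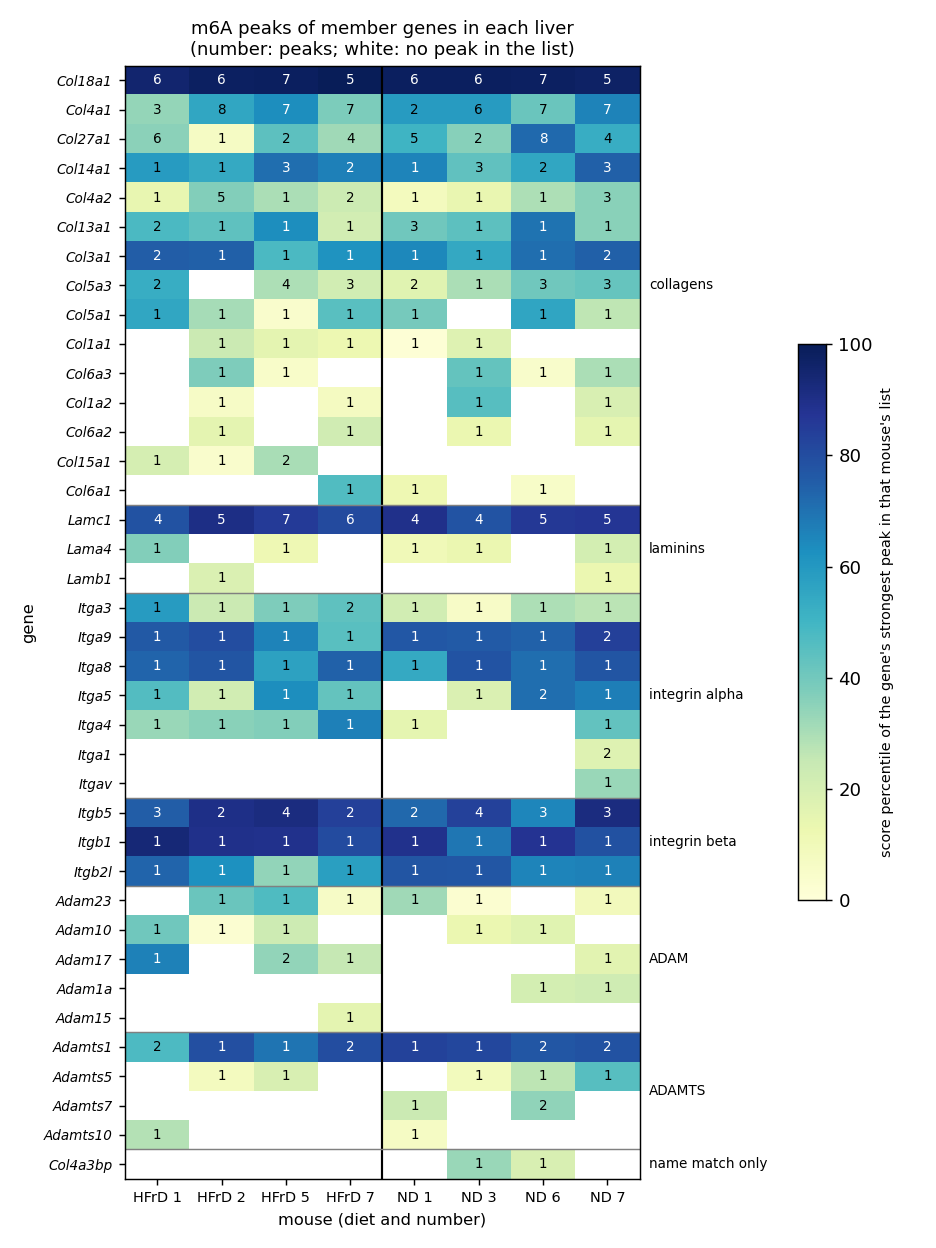
Peaks of the 38 genes (rows, grouped by family) in each mouse (columns, HFrD left of the line and ND right of it). Numbers are peaks of the gene in that list, color is the score percentile of its strongest peak, and white cells hold no peak. Of the 38 genes, 15 were present in all 8 mice, among them Col18a1, Lamc1 and all 3 integrin beta chains.

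Presence differed little between the diets. Of the 38 genes, 8 were found in more HFrD than ND mice (17.7% of all genes were), 10 in more ND than HFrD mice (31.8% of all genes), and 20 in equal numbers. In all 8 mice were 15 of the 38, or 39.5%, against 39.6% of all genes. No member had a peak in every HFrD mouse while missing from every ND mouse, as 0.156% of all genes did, and none had the opposite pattern, as 0.364% of all genes did. At least 2 more HFrD than ND mice held 3 members (4.61% of all genes), and at least 2 more ND than HFrD mice held 3 members (11.3% of all genes). By Fisher's exact test, run on the 2839 genes found in at least 2 lists and missing from at least 2, the share of genes past an adjusted p of 0.05 was 0% (Benjamini-Hochberg, smallest adjusted p = 1). Of these genes 40 had an unadjusted p under 0.05, and none of the 17 members tested did (smallest exact p of a member 0.143). The 40 are the same genes as those above with a peak in all 4 mice of 1 diet and none of the other. With 4 mice a diet this exact test cannot go below 0.0286. A gene could thus pass adjustment only if most tested genes had that p, so no conclusion is drawn from the 0%.

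The lists differed in length, from 8055 peaks in HFrD mouse 7 to 11517 in ND mouse 7, so presence was counted again with every list shortened to its 8055 highest scores. HFrD mice 1, 2, 5 and 7 then had 24, 21, 22 and 26 members, and ND mice 1, 3, 6 and 7 had 21, 18, 20 and 19. The lowest HFrD value equalled the highest ND value. The mean was 23.2 ± 2.22 in HFrD and 19.5 ± 1.29 in ND livers (SD, n = 4 each), a difference of 3.75 genes where full lists gave -0.25. As a share of the members still found in any list this was 64.6% in HFrD and 54.2% in ND livers, beside 66% and 66.8% over all genes still found. Of 36 members still found, 14 were listed for more HFrD than ND mice (24.1% of all 6867 genes) and 6 for more ND than HFrD mice (25.8% of all genes). Members that then differed by at least 2 mice were as follows. Adam17 was in 3 HFrD mice and no ND mouse, and Adam23 in 3 and 1. Adam10, Col1a1 and Col15a1 were each in 2 and none, and Col4a2, Itga3 and Itga4 each in 4 and 2. The other way, Adamts5 and Adamts7 were each in no HFrD mouse and 2 ND mice. None was in every HFrD mouse while missing from ND mice, a pattern of 0.306% of all genes. The lowest score kept ranged from 50 to 77.6 in HFrD mice and from 62 to 112 in ND mice, and it was highest in ND mouse 7. Peaks of the 38 genes were weak by score, with a median percentile of 35.5 in their lists and 34.9% of them among the lowest 25% of scores. How far these unequal limits set the count was not tested.

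**Figure D2:**
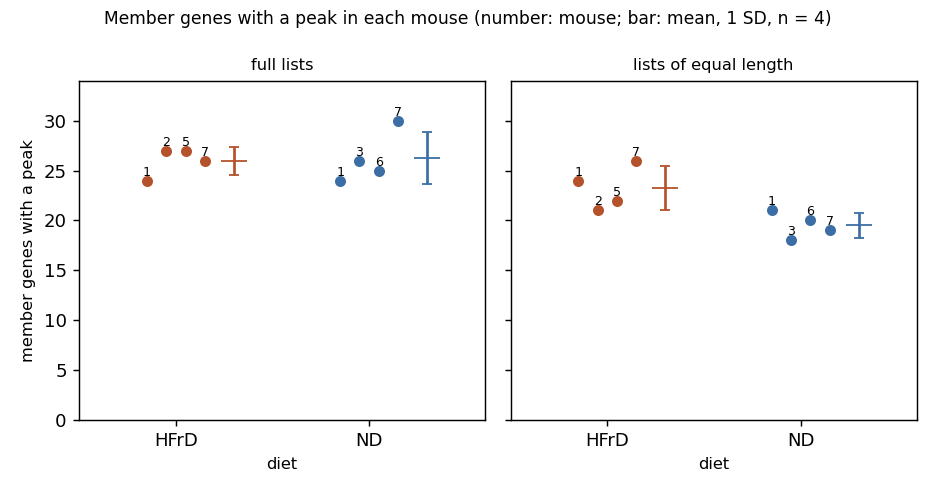
Number of the 38 genes with a peak in each mouse (y axis), HFrD left and ND right, with full lists in the left panel and with lists of equal length in the right panel. Points are mice with their numbers, and bars are the mean and 1 SD. The means of full lists were 26 in HFrD and 26.2 in ND livers, and those of equal lists were 23.2 and 19.5.

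The collagens gave 229 of the 401 peaks and held both the strongest and some of the weakest. Col18a1, whose chain forms collagen XVIII of basement membranes and the fragment endostatin, had 6, 6, 7 and 5 peaks in HFrD mice and the same 6, 6, 7 and 5 in ND mice. Its strongest peak stood at the 95, 97.8, 98.1 and 99.9 percentile of score in HFrD lists and at 98.2, 98.2, 97.9 and 97.1 in ND lists. It was thus near the top of every list on both diets, though no Col18a1 peak had a deposited false discovery rate under 46.2%. The fold enrichment of that peak was 11, 12.5, 10.9 and 11 in HFrD mice and 10.9, 11, 18.9 and 20.4 in ND mice, with the ranges overlapping at the low end. In 7 of the 8 lists it was listed at exon 5, the first sequence given above, and in ND mouse 1 at an exon further downstream. Its score was 1750, 3100, 3100 and 3151 in HFrD mice and 3100 in each ND mouse, near the highest score of any list (3233), so that ranks at the top were tied or nearly so. Exon 4 of Col18a1, next to it, was also listed in all 8 mice.

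Col3a1, the fibrillar type III chain, had its strongest peak at exon 20 in every mouse. The percentile was 75.2, 74.4, 47.8 and 61.4 in HFrD mice and 64.5, 54.3, 71 and 74.4 in ND mice. Fold enrichment was 15.3, 8.08, 7.72 and 7.73 in HFrD and 11.9, 8.33, 16.2 and 13.1 in ND mice. On both measures the diets overlapped. Col14a1, a fibril-associated collagen, had its strongest peak near the start codon in every mouse, at the 58.9, 54.1, 70.9 and 66.6 percentile in HFrD and 65.3, 43.4, 55.4 and 74.5 in ND mice. The chains of type I collagen, the main protein of scar, were found in fewer mice. Col1a1 had a peak in 3 HFrD and 2 ND mice, and Col1a2 in 2 of each, all with a single peak in the last exon. The type VI chains were as sparse, with Col6a1 in 1 HFrD and 2 ND mice, Col6a2 in 2 and 2, and Col6a3 in 2 and 3.

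Type IV chains showed many peaks of low to middling rank. Col4a1 had 3, 8, 7 and 7 peaks in HFrD mice and 2, 6, 7 and 7 in ND mice, over 14 regions of which none was in all 8 mice. HFrD mouse 1 and ND mouse 1 were the low ones. Its partner Col4a2, read from the opposite strand of the same locus, had 1, 5, 1 and 2 peaks in HFrD and 1, 1, 1 and 3 in ND mice. The region at the start of Col4a1 overlaps an exon of Col4a2, and the lists give no strand, so its reads cannot be assigned to either gene.

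Col15a1 was the collagen whose presence differed most. It encodes the chain of collagen XV, which is related to collagen XVIII. It had 1, 1 and 2 peaks in HFrD mice 1, 2 and 5, none in HFrD mouse 7, and none in any ND mouse (Fisher's exact p = 0.143, adjusted p = 1). The strongest peaks had scores of 75.3, 54.8 and 97.4 and percentiles of 20.7, 3.96 and 30.4, so all 3 lay in the lower part of their lists. All 3 mice had the peak at exon 14, shown above, and in HFrD mouse 5 the stronger of its 2 peaks lay at another exon nearby. Col27a1, a fibrillar collagen known from cartilage, leaned the other way in rank. Its strongest peak stood at the 35.2, 6.64, 44.2 and 31.7 percentile in HFrD mice and at 50.5, 36.3, 72.2 and 53 in ND mice, a mean of 29.4 ± 16.1 against 53 ± 14.8 (SD, n = 4 each). The difference was -23.6 points (exact permutation p = 0.0571, adjusted p = 0.541), the smallest p of any member, and the ranges overlapped. Its peaks numbered 6, 1, 2 and 4 in HFrD mice and 5, 2, 8 and 4 in ND mice.

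**Figure D3:**
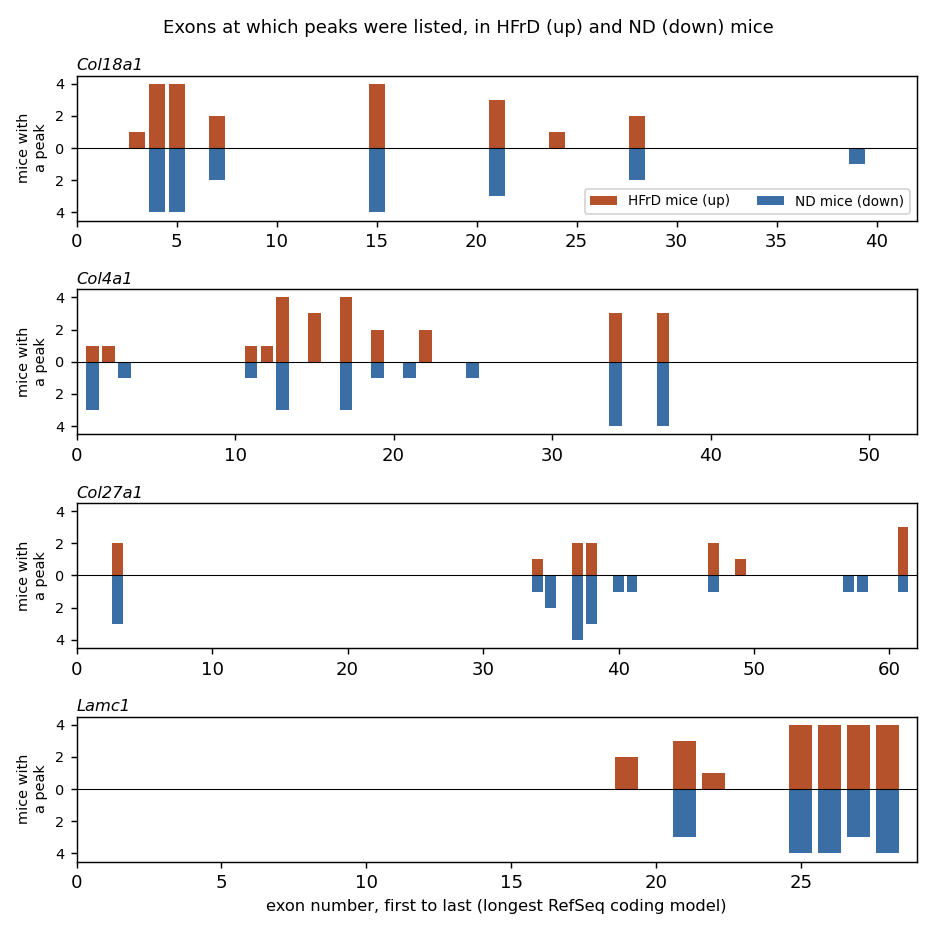
Number of mice with a listed peak (y axis, HFrD upward and ND downward) at each exon (x axis, first to last) of Col18a1, Col4a1, Col27a1 and Lamc1. A Col18a1 region in the first exon of a shorter model is not drawn. Col18a1 had exons with 4 mice on each side, Lamc1 had peaks toward its 3′ end in all 8 mice, and those of Col4a1 and Col27a1 were spread over many exons.

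Of the laminins, Lamc1, the gamma 1 chain shared by most laminins, was present in every mouse. It had 4, 5, 7 and 6 peaks in HFrD mice and 4, 4, 5 and 5 in ND mice, a difference of 1 peak between the means (exact permutation p = 0.371, adjusted p = 1). Its strongest peak, always in the last exon with the 3′UTR, stood at the 78.2, 90.4, 85.3 and 80.7 percentile in HFrD mice and at 89.2, 78.1, 86.2 and 87.1 in ND mice. Fold enrichment of that peak was 18.4, 24.6, 20.4 and 15.9 in HFrD and 36.3, 16.4, 25.8 and 26.8 in ND mice, with overlapping ranges. Exons 25 and 26 were listed in all 8 mice as well. Lama4, an alpha chain of vessel walls, was present in 2 HFrD and 3 ND mice, and Lamb1, the beta 1 chain, in 1 of each.

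The 3 integrin beta chains were present in all 8 mice. Itgb1, the beta chain with the most partners, had a single peak in each, at its first exon (chr8:128685654-128685959, mm10). Its percentile was 93.4, 89.1, 88.8 and 80.3 in HFrD mice and 88.7, 68.8, 87.8 and 78.8 in ND mice. Fold enrichment was 24.2, 25.3, 25.6 and 12.1 in HFrD mice and 29.7, 13.9, 17.4 and 18.4 in ND mice, so that HFrD mouse 7 lay below all other mice and the rest of the values overlapped. Itgb5, a chain that binds vitronectin together with Itgav, had 3, 2, 4 and 2 peaks in HFrD and 2, 4, 3 and 3 in ND mice. Its strongest peak, in the last exon near the stop codon, stood at the 75.3, 89.9, 91.5 and 83.9 percentile in HFrD mice and at 72.5, 83.4, 65.1 and 91.5 in ND mice. Itgb2l, a relative of the leukocyte chain Itgb2, had a single peak in each mouse, at the 73.2, 62.3, 34.3 and 57.5 percentile in HFrD and 77.4, 77, 65.3 and 66.2 in ND mice. Both of its listed regions lie within the spans of Igsf5 and Gm32358, and that of ND mice 1 and 7 overlaps a Gm32358 exon on the opposite strand, so without strand the gene of these reads cannot be told.

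Itgb2l was also listed at different exons. Its peak was given at an exon of 89 bases in all 4 HFrD mice and in ND mice 3 and 6, and at the neighbouring exon of 181 bases in ND mice 1 and 7. Of peaks with a transcript model 96% began or ended at an exon boundary. Whether neighbouring exons listed in different mice stem from the same called peak was not tested.

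Among the integrin alpha chains, Itga3, Itga8 and Itga9 were present in all 8 mice, each with its main peak in the last exon. Itga9, which binds tenascin and VCAM-1, stood at the 76.4, 80, 65.9 and 45.1 percentile in HFrD mice and at 76.6, 76.1, 74.1 and 83.9 in ND mice. Itga8, known in liver from stellate cells, stood at 73.1, 77.5, 57 and 74.1 in HFrD and at 54.2, 77.8, 71 and 77.6 in ND mice. Itga3, a laminin-binding chain, stood at 58.8, 23.8, 37.8 and 44.1 in HFrD mice and at 21.6, 5.7, 29.5 and 27.3 in ND mice. Its mean was 41.1 ± 14.5 in HFrD against 21 ± 10.8 in ND livers (SD, n = 4 each), a difference of 20.1 points (exact permutation p = 0.0857, adjusted p = 0.559). HFrD mouse 2 lay inside the ND range and the other 3 HFrD mice above it.

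Itga4, the chain of the leukocyte receptor for VCAM-1, was present in 4 HFrD and 2 ND mice (Fisher's exact p = 0.429, adjusted p = 1). Its peak in the last exon scored 96.9, 118, 116 and 259 in HFrD mice 1, 2, 5 and 7 and 69.6 and 166 in ND mice 1 and 7. Itga5, the fibronectin receptor chain, was present in 4 HFrD and 3 ND mice. Itga1, a collagen receptor chain, and Itgav, the partner of Itgb5, were found only in the list of ND mouse 7, the longest.

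The membrane proteases were found in few mice, and none of the 5 in all. Adam17, which releases tumor necrosis factor and many growth factors from the membrane, had 1, 2 and 1 peaks in HFrD mice 1, 5 and 7, none in HFrD mouse 2, and 1 peak in ND mouse 7 alone (Fisher's exact p = 0.486, adjusted p = 1). The strongest scored 254, 108 and 83.4 in those HFrD mice and 77.3 in the ND mouse. Those of HFrD mouse 1 and ND mouse 7 lay in the last exon near the stop codon (chr12:21324995-21325626, mm10), and those of HFrD mice 5 and 7 at exon 6. Adam10, which starts the cleavage of Notch receptors, was present in 3 HFrD and 2 ND mice, always near the start codon. Adam23, whose product lacks protease activity, was present in 3 mice of each diet. Adam1a, known from sperm, had a peak in no HFrD mouse and in ND mice 6 and 7 (scores 82 and 91.5, exact p = 0.429, adjusted p = 1). Adam15 was found only in HFrD mouse 7.

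Of the secreted proteases, only Adamts1, which cuts the proteoglycans aggrecan and versican, was in all 8 mice. Its strongest peak, in the last exon, stood at the 47.6, 79.2, 69.5 and 79.9 percentile in HFrD mice and at 83.1, 81.3, 77 and 78.5 in ND mice. The mean was 69 ± 15.1 in HFrD against 80 ± 2.75 in ND mice (SD, n = 4 each). The difference of -10.9 points had an exact permutation p of 0.2 (adjusted p = 0.672). Adamts5, another aggrecan-cleaving protease, was present in 2 HFrD and 3 ND mice, and Adamts10 in 1 of each. Adamts7 had a peak in no HFrD mouse, 1 peak in ND mouse 1 (score 85.1) and 2 peaks in ND mouse 6 (strongest score 117), with an exact p of 0.429 and an adjusted p of 1. Col4a3bp, the gene matched by name only, likewise had a peak in no HFrD mouse and in ND mice 3 and 6 (scores 105 and 79.4, exact p = 0.429, adjusted p = 1).

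Ranks were compared for the 15 members, of 3046 genes in all, that had a peak in every mouse. The mean percentile was higher in HFrD mice for 6 and lower for 9, and the median difference was -1.37 points, against -1.44 over all genes. None of the 15 reached an unadjusted exact permutation p of 0.05, where 1.25% of all genes did so with a higher and 4.92% with a lower rank in HFrD mice. Ranked by fold enrichment in place of score, the difference was -10.5 points for Col27a1, 2.87 for Itga3, -23 for Adamts1 and -11.4 for Col18a1 (exact permutation p = 0.629, 0.714, 0.114 and 0.0571, not adjusted). After adjustment of the exact permutation p-values by score 0% of the genes passed (smallest adjusted p = 0.463). The permutation p cannot go below 0.0286 here, so a gene could pass only if most genes had that p, and no conclusion is drawn from the 0%. Peak number was compared for the 28 members, of 5368 genes, present in at least 4 lists. None reached an unadjusted exact permutation p of 0.05 (smallest p of a member 0.371), where 0.261% of all genes did with more and 0.95% with fewer peaks in HFrD mice.

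**Figure D4:**
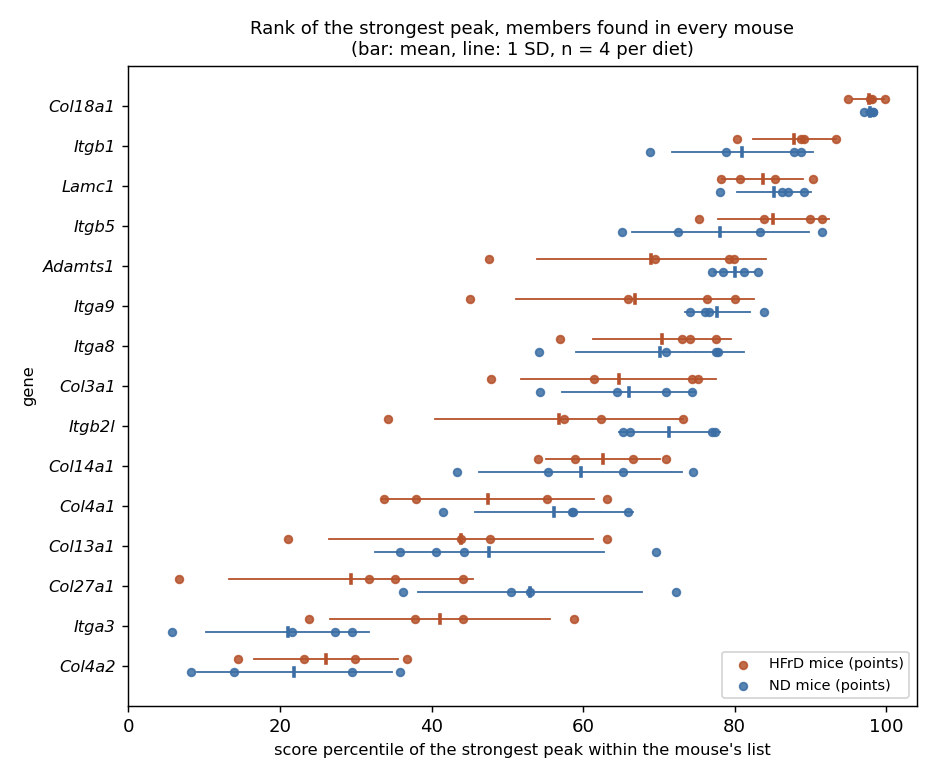
Score percentile of the strongest peak within each mouse's list (x axis) for the 15 genes found in all 8 mice (rows), with HFrD mice in the upper and ND mice in the lower line of each row. Points are mice, ticks are means and lines are 1 SD. The diets overlapped for each of the 15 genes, and the widest gaps between means by score were those of Col27a1 (-23.6 points) and Itga3 (20.1 points), which were -10.5 and 2.87 by fold enrichment.

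Peaks of all mice were then merged into regions where they overlapped within a gene, to ask whether a gene kept its presence but lost a site. The 38 genes had 115 regions, of which 15 (13%) were in all 8 mice, against 24.7% of all 17574 regions. Regions found in a single list were 41 (35.7%), against 24.5% of all regions. In more HFrD than ND mice were 41 regions (35.7%), against 23.5% of all regions, and in more ND than HFrD mice 41 (35.7%), against 38.3% of all regions. None was in every HFrD mouse and absent from ND mice (0.091% of all regions), and none the other way round (0.364% of all regions). Col4a1 exon 15 and Col15a1 exon 14 were each listed in 3 HFrD mice and no ND mouse, and an Itgb5 exon (chr16:33919785-33920214, mm10) in 3 ND mice and no HFrD mouse. Exons 13 and 17 of Col4a1, on either side of the first, were listed in 4 HFrD and 3 ND mice.

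The families differed in where their peaks lay on the transcript. Peaks were placed by their midpoint, with start and stop codon segments of 200 nt on either side of the codon. Of collagen peaks 74.2% lay in the CDS, and of laminin peaks 72.3%, against 49.3% of the peaks of all genes. Of the collagen peaks of HFrD mice 1, 2, 5 and 7, 19 of 23, 21 of 29, 24 of 30 and 20 of 29 lay in the CDS, and of those of ND mice 1, 3, 6 and 7, 15 of 23, 17 of 24, 25 of 31 and 23 of 32 did, so that the CDS held most of them in every mouse. Of integrin alpha peaks 88.4% lay in the 3′UTR, against 9.79% of the peaks of all genes. Of the integrin alpha peaks of HFrD mice 1, 2, 5 and 7, 5 of 5, 5 of 5, 5 of 5 and 5 of 6 lay in the last exon, and of those of ND mice 1, 3, 6 and 7, 4 of 4, 4 of 4, 4 of 5 and 6 of 9 did. The 5 others were further peaks of Itga1, Itga3, Itga5 and Itga9 and the only peak of Itgav. Integrin beta peaks lay near the start codon (48.7%), in the CDS (28.2%) or near the stop codon (23.1%). Of ADAMTS peaks 57.1% lay near the stop codon by midpoint, most of them in the last exon of Adamts1. These shares pool lists that name the same few regions, and they are a description without a test.

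**Figure D5:**
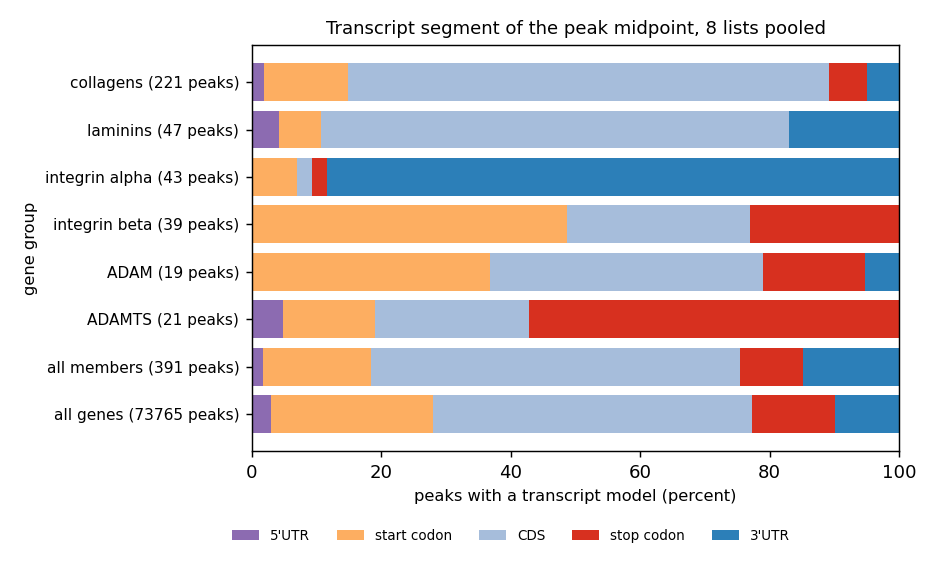
Share of peaks (x axis, percent) by transcript segment of the peak midpoint for each family, all 38 genes and all genes in the lists, with the 8 lists pooled. Collagens and laminins show mostly CDS (74.2% and 72.3%), and integrin alpha chains mostly 3′UTR (88.4%).

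The shape of the genes goes with these shares. Collagen members had a median of 48 exons and a median listed peak of 130 bases, and 77.8% of their peaks spanned a whole exon. Integrin alpha members had a median of 29 exons, but their peaks had a median of 1067 bases and lay mostly in the long last exon. Of these peaks 27.9% spanned a whole exon. Only 10.9% of collagen peaks lay in the last exon, against 26.6% of the peaks of all genes. Taking the start of each peak in place of its midpoint moved integrin alpha peaks to the stop codon segment (76.7%) and left 14% in the 3′UTR. ADAMTS peaks moved to the CDS (78.9%), with 0% left in the stop codon segment. Collagen peaks stayed in the CDS (74.1%).

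Motifs were counted on the transcribed strand of the regions. GGACC occurred 39 times in the 7976 bases of 54 coding collagen regions, or 4.89 times per 1000 bases, against 1.33 in the coding regions of all genes. GGACT occurred 1.76 times per 1000 bases, against 1.08. Length was compared in bins: of collagen regions of 50 to 100 bases 39.1% held GGACC, where 7.98% of all coding regions of that length did, and of those of 100 to 200 bases 61.9% did, where 16.6% of all did. For GGACT the shares were 13% against 4.55% and 28.6% against 12.1%. On the opposite strand GGACC occurred 3.01 times per 1000 bases of the collagen regions.

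The same density was found over the whole coding sequence of these collagens, inside and outside peaks. The 15 genes held GGACC 371 times in 71625 bases, or 5.18 times per 1000 bases, and GGACT 1.75 times, against 1.47 and 1.17 over all genes with a peak. Of the 371, 310 (83.6%) began at the first base of a codon, where GGA encodes glycine and the following CC begins a codon of proline. Over all genes with a peak 21.6% of GGACC were in that frame, and over the 22 other members with a coding model 20.5%. In collagen regions of all segments, 35 of the 46 that lay in coding bases were (76.1%). The 2 copies in Col4a2 exon 5, given above, show the repeat. Of the 15 member regions present in all 8 mice, 7 held GGACT, 8 GGACC and 9 GGACA, and 2 held none of these, among them the strongest, Col18a1 exon 5. These counts are over the merged region, and a motif in it need not lie in the peak of every mouse, as for GGACT of Adamts1. A motif in a region is a description and does not place a methylated base.

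Other genes of the matrix and of adhesion were taken from fixed lists for comparison. None in any list passed Fisher's exact test after adjustment, which could pass a gene only if most tested genes had the lowest possible p. The counts of these genes are from peak lists of full length. Over all genes 17.7% were found in more HFrD and 31.8% in more ND mice, so full lists lean to ND in general. With lists of equal length these shares were 24.1% and 25.8% of the genes still found. The fixed lists were not counted at equal length. Of 32 other matrix proteins 16 had a peak, 4 in more HFrD and 6 in more ND mice, with Fbln2, a fibulin of vessel walls, in 3 HFrD mice and no ND mouse (exact p = 0.143, adjusted p = 1). Of 30 genes of collagen processing 15 had a peak, 4 in more HFrD and 6 in more ND mice, with Plod3, which hydroxylates collagen lysines, in 1 HFrD mouse and 4 ND mice (exact p = 0.143, adjusted p = 1). Of 22 other collagenases and inhibitors 5 had a peak, with 1 in more HFrD mice and none in more ND mice. Of 37 genes of focal adhesion and integrin signalling 27 had a peak, 2 in more HFrD and 12 in more ND mice, and 13 in equal numbers. Of 33 substrates of the ADAM sheddases 18 had a peak, 4 in more HFrD and 4 in more ND mice, with Insr, the insulin receptor, in no HFrD mouse and 3 ND mice (exact p = 0.143, adjusted p = 1). Of 16 genes of the TGF-beta axis 11 had a peak, 2 in more mice of each diet.

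Markers of the cells that make these proteins were read in the same way. Of 14 stellate cell and fibroblast markers 9 had a peak, 6 to 7 in each HFrD mouse and 6 to 8 in each ND mouse, with Lrat, Pdgfrb and Hand2 in all 8 mice and Acta2, Dcn and Reln in none. Of 10 endothelial markers 8 had a peak, 5 to 7 in HFrD and 5 to 8 in ND mice, with Kdr, Lyve1 and Pecam1 in all 8. Of 8 Kupffer cell markers 5 had a peak, 2 to 4 in mice of either diet, with 2 of the 5 in more HFrD and 3 in more ND mice. Marco was in 4 HFrD mice and no ND mouse (exact p = 0.0286, adjusted p = 1), Vsig4 in 4 and 3, Cd5l in 1 and 3, Clec4f in 3 and 4, and Csf1r in none and 1. Of 12 hepatocyte markers 6 had a peak, 2 to 3 in HFrD and 2 to 4 in ND mice, and Alb and Cps1, abundant in hepatocytes, had none, so that a missing peak here does not show missing RNA. Of 6 cholangiocyte markers 3 had a peak (2 in each HFrD mouse, 2 to 3 in ND mice), and of 8 lymphocyte and neutrophil markers 3 (2 to 3 in HFrD mice, 2 in each ND mouse), with Cd3e in none. Their part in the presence of the 38 genes was not tested.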

How the data were processed

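Liver RNA was enriched with an m6A antibody and sequenced as 150 bp read pairs. The submitters' processing notes name cutadapt 1.9.3, HISAT2 2.0.4 and the mm10 build. The authors called peaks with MACS in each mouse, in settings not given in the sources used here, and listed them at messenger RNA exons. The deposited score is -10 times log10 of the p-value and the deposited fold enrichment is a ratio to the background. False discovery rates were deposited by the authors as percent, with a median of 91% over member peaks and 88.8% over all. The lowest of any member peak was 46.2%, and the lowest over all genes was 0%. Many single peaks, of members at any rank, may thus be false calls. Reads were not analysed here, so depth is unknown and list length is the only measure of yield. The deposited peak length is another value, in bases.

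Genes, lists of genes and alternatives were chosen with earlier results of these data known. Tests took every gene of the lists that met the presence limit of that test, and Benjamini-Hochberg adjustment ran over all genes tested. Scores of separate lists share no scale, so presence and percentiles within a list were compared. Group means were compared by exact permutation over all 70 splits (two-sided), and presence by Fisher's exact test (two-sided). Mice, not peaks, were replicates. Starts were printed counted from 1. Of all peaks, 95.6% had a RefSeq or GENCODE transcript model, and 96% of these began or ended at an exon boundary. Whether score and fold enrichment belong to the listed exon or to a longer called peak was not tested. Values are given in full for members that differed by at least 2 mice and for the 3 members of each family in all 8 mice with the highest median percentile. Software was scipy 1.17.1, numpy 2.4.6, pandas 2.3.3, pysam 0.24.0 and matplotlib 3.10.9 under Python 3.11.15, tested on simulated data. Alternatives were minimums on the score (100) and on fold enrichment (3), equal list lengths, a coverage of 50% of a region, other rank measures, each mouse left out, and the mice whose numbers both diets share. Counts without Col4a3bp were added after seeing the data.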

Additional observations from a re-analysis of the deposited data

Results flagged for a closer look

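In 84 groups of 4 mice, 8 values lay apart from the other 3 by the 95% limit of Dixon's ratio, where chance gives about 1 in 20. Fold enrichment of the strongest Itgb1 peak was 12.1 in HFrD mouse 7, against 24.2 to 25.6 in the other HFrD mice. That of Col3a1 was 15.3 in HFrD mouse 1, against 7.72 to 8.08 in the others. That of Col4a1 was 10.9 in HFrD mouse 5, against 5.04 to 5.19 in the others. That of Col18a1 was 12.5 in HFrD mouse 2, against 10.9 to 11 in the others. That of Adamts1 was 18.1 in ND mouse 1, against 10.9 to 11.8 in the other ND mice. Among counts of genes, ND mouse 7 had 7 integrin alpha genes, where the other ND mice had 4 each, and HFrD mouse 7 had 1 laminin gene and 1 ADAMTS gene, where the other HFrD mice had 2 of each. These counts are whole numbers of few genes, where a step of 1 gene is enough to stand apart.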

How the results depend on the processing

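With lists of equal length, 14 members were found in more HFrD and 6 in more ND mice (8 and 10 with full lists), and members per mouse differed by 3.75 (-0.25 with full lists, and -1 to 1 without each mouse in turn, turning positive without ND mouse 7 or HFrD mouse 1). Asking for at least 3 mice against none separated 1 member toward HFrD, Col15a1, whose difference in presence was 0 at a score of at least 100. That of Adam1a was 0 at that score and at equal lengths, and those of Itga4 and Col4a3bp were 0 in the replicate block. The replicate block, which set HFrD mouse 1 against ND mouse 1 and HFrD mouse 7 against ND mouse 7, gave 5 members in more HFrD mice, 2 regions separated toward HFrD and 1 toward ND. The deviations of same-numbered mice from their diet means had correlations of 0.0544 and -0.0544 in rank and of 0.0437 and -0.0409 in presence. With 2 pairs these values cannot tell whether the numbers stand for anything the mice shared, and they allow no test of rank. Without each mouse in turn, separated members toward HFrD ranged from 0 to 1 (Col15a1 without HFrD mouse 7), separated regions from 0 to 1 toward either diet, and members differing in rank from 0 to 1 (Itgb2l at -20.1 without HFrD mouse 1, Itga3 at 25.9 without HFrD mouse 2, exact permutation p = 0.0286 each). By the start of the peak, segment shares of member peaks were 12.6% 5′UTR, 7.37% start codon, 61.6% CDS, 16.8% stop codon and 1.58% 3′UTR. On the opposite strand GGACT occurred 0.798 and GGACC 1.57 times per 1000 bases of member regions, and GGACC 3.01 times in coding collagen regions.

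No difference in rank that changed sign had passed a test. Ranked by fold enrichment the difference of HFrD and ND means was 3.91 for Col13a1, 2.54 for Col4a1, -6.86 for Itga8 and -12.2 for Itgb5, and by the median peak -1.31 for Col4a2. At equal lengths it was 3.95 for Col13a1, 0.144 for Col18a1, 1.88 for Col3a1 and 0.577 for Lamc1. In the replicate block it was -7.19 for Col14a1, -3.27 for Col4a2 and -2.44 for Itgb5. Leaving out mice gave -10 to 3.97 for Col13a1, -2.44 to 7.93 for Col14a1, -0.884 to 0.772 for Col18a1, -5.28 to 4.27 for Col3a1, -0.344 to 8.86 for Col4a2, -5.05 to 4.76 for Itga8 and -3.84 to 0.33 for Lamc1. The cause was not tested. Read depth is unknown, so a missing peak cannot be told from a shallow library.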
